A study of Homo sapiens with 20 samples.

Results

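The exons that control HepG2 cells almost always skip were examined across the 3 skipped exon tables of this study. An inclusion level is the length-scaled share of splice junction reads that include an exon, from 0 (always skipped) to 1 (always included). Events were chosen by their control libraries, separately in each table, as those with a pooled control level under 0.1 and, averaged over libraries, 20 or more junction reads. This rule gave 1170 of 19792 events with the siCtrl2 libraries, 2084 of 32990 with the GFP ASO libraries and 389 of 7065 with the siCtrl input libraries. Together these were 2393 distinct events of 38587, in 2286 exons and 1602 genes. The control levels that chose the events are given as a description and were not tested.

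HepG2 is an established human liver cancer cell line, and all libraries came from it. In the first experiment, cells were given either siCtrl2, a control siRNA, or siFUBP1, which targets the nuclear RNA-binding protein FUBP1, and polyadenylated RNA was sequenced after 48 h. In the second, cells received an antisense oligonucleotide against GFP (GFP ASO), a sequence human cells lack, or against the U3 small nucleolar RNA (U3 ASO), and polyadenylated RNA was sequenced after 72 h. In the last, input RNA was sequenced 48 h after a control siRNA (siCtrl input) or an siRNA against FBL (siFBL input), the 2′-O-methyltransferase fibrillarin that works with U3 and other C/D box small nucleolar RNAs. This RNA was the input of a FUBP1 RNA immunoprecipitation, taken before that step. The study's methods describe no selection of polyadenylated RNA for it. The first 2 experiments had 3 biological replicates per group and the last had 2. Depletion was transient, in bulk cells of 1 line, so a level of 0.03 cannot tell a few cells that include an exon often from many cells that include it seldom.

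An internal exon is included when the spliceosome recognizes the splice sites at both of its ends. Exons that are rarely used often carry weaker splice sites, and many of them bring a stop codon into the reading frame. Such poison exons send the transcript to nonsense-mediated decay (NMD), a route by which several splicing regulators limit their own level, and an NMD product is degraded, so its reads underrepresent how often the exon was spliced in.

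Junction reads per library totalled 2693397 to 4474350 in the siFUBP1 table, 11249641 to 13321799 in the U3 ASO table and 910779 to 1142189 in the siFBL input table. FUBP1 junction reads, scaled to the library total as RPM, were 50.5 ± 5.44 in the siCtrl2 and 7.52 ± 3.09 in the siFUBP1 libraries (SD, n = 3). The same measure was 59.9 ± 3.68 for GFP ASO and 41.5 ± 2.53 for U3 ASO. FBL had no event, and tables of skipped exons do not measure the U3 RNA, so these depletions were not checked here. Of 12 hepatocyte marker genes, 9 to 11 had events, against none of 3 fibroblast markers, 1 of 3 endothelial markers in 1 table (PECAM1, at most 0.834 RPM) and 1 of 4 leukocyte markers (LYZ, encoding lysozyme, at 1220 to 13141 RPM).

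The sequences of the exons on which the comparisons turned are printed first, read 5′ to 3′ from hg38 on the strand of the gene. In the first set, 20 intron bases are followed by the exon up to its first in-frame stop codon, which is in capitals; these exons were rare in siCtrl2 or, for SRRM1, in GFP ASO, and gained a stop codon when included. Both SRSF3 and SRRM1 encode splicing regulators, TIA1 encodes an RNA-binding protein of stress granules, DDX19A an RNA helicase, and HDGF a heparin-binding growth factor.
SRSF3, chr6:36599801-36599854, plus strand: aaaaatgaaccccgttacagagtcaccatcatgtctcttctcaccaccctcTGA
SRRM1, chr1:24647059-24647084, plus strand: tgtgatttatgatttaaaaggccTGA
TIA1, chr2:70225544-70225588, minus strand: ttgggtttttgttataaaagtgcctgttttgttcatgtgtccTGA
DDX19A, chr16:70356826-70356876, plus strand: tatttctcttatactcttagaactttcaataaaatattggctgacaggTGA
HDGF, chr1:156744511-156744590, minus strand: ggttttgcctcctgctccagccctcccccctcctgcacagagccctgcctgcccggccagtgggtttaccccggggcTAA
The stop codon ended at base 34 of the SRSF3 exon, base 6 of the SRRM1 exon, base 25 of the TIA1 exon, base 31 of the 61-base DDX19A exon and base 60 of the 70-base HDGF exon.

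The second set shows whole exons in capitals between 20 intron bases upstream and 6 downstream. The 9-base exon of MTSS2, a membrane and actin-binding protein, and the 273-base exon of FN1, which encodes extra domain B of fibronectin, keep the reading frame and are parts of the canonical transcripts. The 47-base exon of DNAJC2, a ribosome-associated chaperone, shifts the frame.
MTSS2, chr16:70679309-70679343, minus strand: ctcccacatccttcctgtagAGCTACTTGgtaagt
DNAJC2, chr7:103327326-103327398, minus strand: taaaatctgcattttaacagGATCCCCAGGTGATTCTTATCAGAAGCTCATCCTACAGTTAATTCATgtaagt
FN1, chr2:215392925-215393223, minus strand: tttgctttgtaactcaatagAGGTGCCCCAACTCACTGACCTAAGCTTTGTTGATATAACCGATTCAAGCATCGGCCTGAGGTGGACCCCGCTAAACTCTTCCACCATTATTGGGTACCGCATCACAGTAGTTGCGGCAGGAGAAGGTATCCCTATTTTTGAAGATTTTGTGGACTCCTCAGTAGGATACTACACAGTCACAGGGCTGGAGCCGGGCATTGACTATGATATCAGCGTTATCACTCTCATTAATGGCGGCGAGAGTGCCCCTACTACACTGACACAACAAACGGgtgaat
These 3 exons are shown as a microexon, a frame-shifting exon and a long coding exon that differed between control and depleted cells.

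How rare the exons were, and how well covered, was described first. The median control level was 0.0165 in siCtrl2, 0.0174 in GFP ASO and 0.022 in siCtrl input. A level under 0.01 was measured for 443 events (37.9%), 828 events (39.7%) and 150 events (38.6%). At the other end of the range, 228, 418 and 97 events had a level of 0.05 or more. No inclusion read was found in any control library for 191 events (16.3%) in siCtrl2, 458 (22%) in GFP ASO and 95 (24.4%) in siCtrl input. For these, 3 inclusion reads, the limit that a count of 0 allows, would correspond to a median level of 0.0135, 0.0119 and 0.0249, which covers counting error only. Every listed event had at least 1 inclusion read in some library of its table, so an exon without control inclusion reads is higher in the depleted libraries by construction. Coverage was moderate, with a median of 55.3, 90.7 and 47 reads per library, and 334, 967 and 98 events reached 100 reads.

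The events nearest to the limit show how sharply it divides. In siCtrl2, the exons of RBIS and PATZ1 lay just inside at 0.0997, and those of NADK2 (0.1004) and CLIP2 (0.101) just outside. In GFP ASO, LSR (0.0996) and PCBP4 (0.0998) lay inside, and SNRPN (0.10004) and SLC17A9 (0.1003) outside. In siCtrl input, SLC17A9 (0.0998) and MIA3 (0.0999) lay inside, and PLOD2 (0.1009) and CCDC92 (0.1018) outside. SLC17A9 thus fell on different sides in different controls.

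Rarity was largely shared between the controls. Of the events chosen by GFP ASO that had 20 reads in the siFUBP1 table, 912 of 979 (93.2%) were also under 0.1 in siCtrl2. In the other direction, 912 of 1108 events chosen by siCtrl2 (82.3%) were under 0.1 in GFP ASO, and 1 of the 1108 had a level of 0.5 or more. The shared 912 events were 77.9% of the siCtrl2 list and 43.8% of the longer GFP ASO list. Under siCtrl input, 87.8% of the events chosen by siCtrl2 and 90.5% of those chosen by GFP ASO were below the limit, where 20 reads were present. Among all events with 20 reads, the share under 0.1 was 8.58% in siCtrl2, 7.51% in GFP ASO and 9.87% in siCtrl input. All 3 controls placed 251 events under the limit, 748 events qualified in 2 tables and 1394 in 1. The levels were not the same everywhere: events chosen by siCtrl2 had a median of 0.0298 in GFP ASO, whereas events chosen by GFP ASO had a median of 0.0152 in siCtrl2.

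The rare exons with the most junction reads were described next. GPC3 encodes glypican 3, a cell surface proteoglycan of liver tumours, and its 69-base exon at chrX:133704205-133704273 had 7208.5 reads per library in the U3 ASO table. Its level was 0.0105, 0.00659 and 0.00988 in the GFP ASO libraries, 0.0135, 0.0102 and 0.00697 in the siCtrl2 libraries, and 0.00915 and 0.00997 in the siCtrl input libraries. The 8 control libraries thus ranged from 0.00659 to 0.0135. RPN2, a subunit of the oligosaccharyltransferase, had a 48-base exon at 0.0192, 0.017 and 0.0199 in the 3 pooled controls. The 36-base exon of APLP2, an amyloid precursor-like protein, had control levels of 0.0443, 0.0328 and 0.023. NACA, the alpha subunit of the nascent polypeptide-associated complex, had a 60-base exon at 0.00152 in siCtrl2 and 0.0015 in GFP ASO and its 5589-base exon at 0 in siCtrl2, where 3 reads would give 0.000229. In ENO1, the glycolytic enzyme enolase 1, the 59-base exon had no inclusion read in GFP ASO although 8548 reads per library covered the event, and 3 reads would give 7.4e-05.

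Annotation in GENCODE release 44, which the rule did not use, set the rare exons apart. An exon with exactly these ends was annotated for 84.8% (siCtrl2), 81.7% (GFP ASO) and 88.7% (siCtrl input) of the rare events, against 97.5%, 97% and 97.7% of all events with 20 reads. The canonical transcript of a gene contained 13.4%, 12% and 17% of the rare exons, against 85.2%, 84.2% and 83.2% of all. Conversely, the junction that skips the exon belonged to the canonical transcript for 80.3%, 79.3% and 74.8% of the rare events and for 9.51%, 8.88% and 10.9% of all. Coding sequence of a protein-coding transcript overlapped 37.5%, 34.6% and 44% of the rare exons, against 88.2%, 86.8% and 87.4% of all. An exon found in NMD transcripts but in no protein-coding one made up 19.6%, 18.7% and 16.7% of the rare exons and 2.55%, 2.54% and 2.66% of all. No test was run across exons, since events of 1 gene share sequence and reads, and these shares are descriptions.

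The reading frame differed as well. Frame could be read where a coding transcript joins the neighbouring exons inside its coding sequence, which held for 895, 1555 and 291 rare events. With the exon inserted, 54.1% (siCtrl2), 55.2% (GFP ASO) and 46.4% (siCtrl input) of these gained an in-frame stop codon within the exon. The frame came from a transcript that skips the exon, so this class does not separate premature stops from those of annotated coding exons. It includes the 45-base MYL6 exon and the 5589-base NACA exon, both with coding sequence and in canonical transcripts. Frame could be read for 76.5%, 74.6% and 74.8% of the rare events, but for 28.6%, 23.7% and 36.6% of all events with 20 reads and 18.3%, 14.4% and 24.7% of events at 0.9 or more, so unlike subsets stand side by side. Within them, the stop share was 28%, 30.7% and 24% of all events and 19.5%, 20.7% and 17.9% of events at 0.9 or more. The frame was kept without a stop in 33.2%, 29.5% and 38.5% of the rare events, against 61.7%, 56.9% and 62.8% of events at 0.9 or more. A length divisible by 3 was found for 47.8% of the rare exons in siCtrl2, 44.3% in GFP ASO and 48.3% in siCtrl input, against 45.6%, 41.3% and 49.1% of all. The plot of reading frame classes shows the 3 tables side by side.

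**Figure D1:**
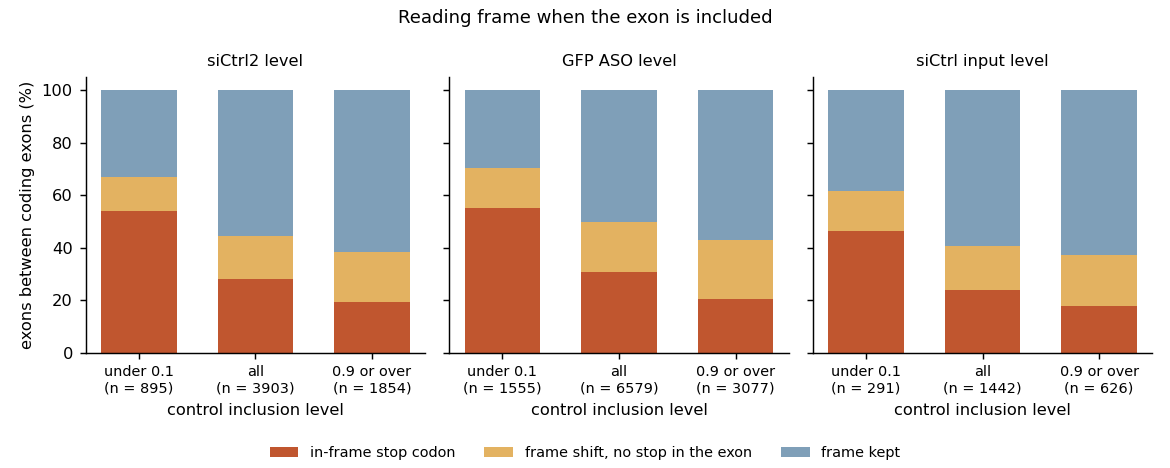
Share in percent of skipped exon events that gain an in-frame stop codon, shift the frame without a stop, or keep the frame when the exon is included, for events with control level under 0.1, all events with at least 20 reads and events at 0.9 or more, in each table (n under the bars). The stop class makes up 54.1%, 55.2% and 46.4% of the rare events, the largest of the 3 classes in each panel.

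Splice sites were scored by the log2 odds of each base against even base use, from 167877 internal exons of canonical coding transcripts. The median score of the 5′ splice site (3 exon and 6 intron bases) was 7.11 in siCtrl2, 7.19 in GFP ASO and 6.98 in siCtrl input for rare exons, and 8, 7.95 and 7.78 for all events. The 3′ splice site (20 intron and 3 exon bases) differed less, with medians of 8.88, 8.86 and 8.86 for rare exons and 9.3, 9.2 and 8.85 for all. A GC in place of GT at the start of the downstream intron was found for 43 rare exons (3.68%) in siCtrl2, 85 (4.08%) in GFP ASO and 7 (1.8%) in siCtrl input, against 1.1%, 1.15% and 1.07% of all. Rare exons were shorter, with a median of 104, 104 and 102 bases against 116, 117 and 117. Microexons of up to 30 bases made up 4.02%, 4.65% and 5.66% of the rare exons, against 1.31%, 1.31% and 1.78% of all.

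Whether the exons stay rare after each depletion was asked first in the libraries that chose them, without a test. The median level of the siCtrl2 events was 0.0166 in the siFUBP1 libraries, and 1063 of 1170 (90.9%) remained under 0.1. The GFP ASO events had a median of 0.0293 in the U3 ASO libraries, with 1773 of 2084 (85.1%) under 0.1. The siCtrl input events had a median of 0.0237 in the siFBL input libraries, with 329 of 389 (84.6%) under 0.1. With only 1 siFBL input library left, this median was 0.00828 without library 1 and 0.00236 without library 2. A control value that is low by chance returns upward in other libraries, so the comparison in both directions is needed. Between siCtrl2 and siFUBP1, 107 events were under 0.1 in the control only and 145 in the depleted libraries only. Between siCtrl input and siFBL input, the counts were 60 and 65. Between GFP ASO and U3 ASO, they were 311 and 188, so more events left the rare range than entered it.

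To compare control and depleted libraries without the values that chose the events, each table was read for events chosen by the control of another table. Of the events rare in siCtrl2, 1115 were tested in the U3 ASO table, and their median level was 0.0305 with GFP ASO and 0.0388 with U3 ASO. The level was higher in U3 ASO for 707 events (63.4%) and lower for 408, whereas 41% of all 30110 tested events were higher. The mean level over the events with reads in every library was 0.0571 to 0.0605 in the 3 GFP ASO libraries (0.0589 ± 0.00174, SD, n = 3) and 0.0638 to 0.0674 in the 3 U3 ASO libraries (0.0655 ± 0.0018). The libraries of both groups thus did not overlap. The share of higher events was 59.2% to 61.6% without 1 U3 ASO library and 63.4% to 65.4% without 1 GFP ASO library. It was lower in each omission from U3 ASO than in the full set, so these shares do not show the weight of any single library. The adjusted p was under 0.1 for 17 of the 1115 events (1.52%), against 0.226% of all tested events, and 14 of the 17 rose. At an unadjusted p under 0.05, 127 events (11.4%) differed, 106 higher and 21 lower, against 4.16% of all tested. Libraries did not overlap for 139 events that were higher (12.5%, against 2.31% of all) and for 31 that were lower (2.78%, against 3.72% of all). Of the 660 tested events with a siCtrl2 level from 0.1 to 0.5, 1.97% had an adjusted p under 0.1. In that range 11.1% were higher without overlap, so neither share was particular to the rare exons.

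After FUBP1 depletion, the same reading gave no such shift. Of the events rare in GFP ASO, 1184 were tested in the siFUBP1 table, with a median of 0.0165 in siCtrl2 and 0.0172 in siFUBP1. The level was higher for 593 events (50.1%, against 48.2% of all 16213 tested) and lower for 589, and the share was 43.8% to 46.6% without 1 siFUBP1 library and 53.3% to 56.7% without 1 siCtrl2 library. In every omission the group with fewer libraries was more often the lower, so these shares do not show the weight of any single library. Library means were 0.0371 to 0.0445 in siCtrl2 and 0.0398 to 0.0425 in siFUBP1, so they overlapped. The adjusted p was under 0.1 for 1 event, the FN1 exon (0.0845%, against 0.197% of all tested). At an unadjusted p under 0.05, 45 events (3.8%) differed, 33 higher and 12 lower, against 4.6% of all. Libraries did not overlap for 34 higher events (2.87%, against 1.96% of all) and 42 lower events (3.55%, against 3.1% of all).

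After FBL depletion, no event was called. Of the events rare in siCtrl2 or GFP ASO, 574 were tested in the siFBL input table, with a median of 0.0286 in siCtrl input and 0.0305 in siFBL input. The level was higher for 299 events (52.1%, against 48% of all 5218 tested) and lower for 275, and the share was 42.1% and 43.5% without 1 siFBL input library and 61.1% and 62.5% without 1 siCtrl input library. Here too, the group with fewer libraries was more often the lower in every omission. Library means were 0.0602 and 0.0756 in siCtrl input and 0.0776 and 0.0965 in siFBL input. These means did not overlap, at 2 libraries per group. With the quasi-binomial test, 0 events had an adjusted p under 0.1, where 0% of all tested events did, and 6 (1.05%) had an unadjusted p under 0.05, 5 higher and 1 lower, against 2.28% of all. Libraries did not overlap for 53 higher events (9.23%, against 6.19% of all) and 51 lower events (8.89%, against 7.63% of all). By limma on log2 odds, the calls were 0 with no variance trend, 1 with a trend and 4 with precision weights, where all 5218 tested events gave 0, 3 and 40. This table had 2 libraries per group and the fewest reads of the 3.

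**Figure D2:**
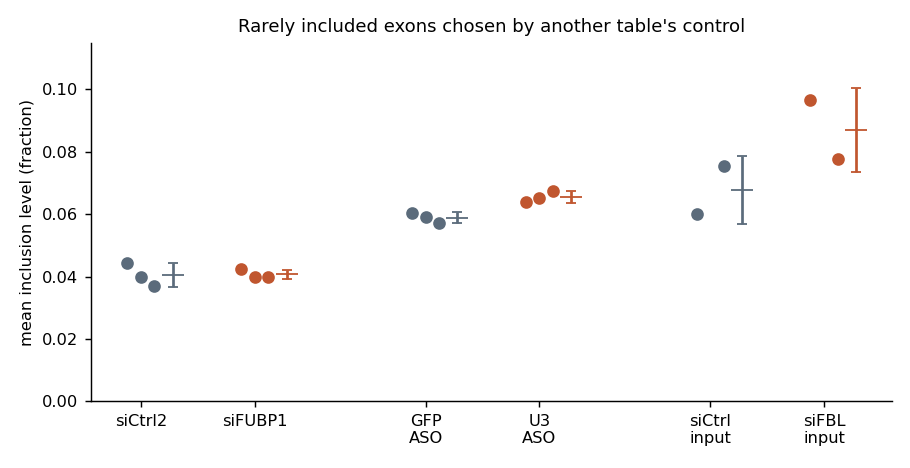
Mean inclusion level (fraction) of rarely included exons chosen by the control of another table, with 1 point per library and the mean ± SD of each group beside it. The 3 U3 ASO libraries (0.0638 to 0.0674) lie above the 3 GFP ASO libraries (0.0571 to 0.0605), while the siFUBP1 and siCtrl2 libraries overlap. The 2 siFBL input libraries (0.0776 and 0.0965) also lie above the 2 siCtrl input libraries (0.0602 and 0.0756).

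The direction of change under U3 ASO differed along the range of inclusion. By the siCtrl2 level, 63.4% of events under 0.1 were higher in U3 ASO, 54.5% of events from 0.1 to 0.5, 44.2% from 0.5 to 0.9 and 39.2% of events at 0.9 or more. The median change was 0.00566 for the rare exons and -0.00318 for exons at 0.9 or more. At an adjusted p under 0.1, 14 rare exons rose and 3 fell (1.52%). From 0.1 to 0.5, 11 rose and 2 fell (1.97%), and from 0.5 to 0.9, 6 and 5 (0.695%). Among the 7157 exons at 0.9 or more, 1 event rose and 15 fell (0.224%, against 0.226% of all tested events). In the siFUBP1 table, the corresponding shares by GFP ASO level were 50.1%, 47.4%, 49.7% and 48.7%, and in the siFBL input table, by siCtrl2 level, 51.6%, 49.3%, 44.6% and 48.7%. No test of the difference between these ranges was run.

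**Figure D3:**
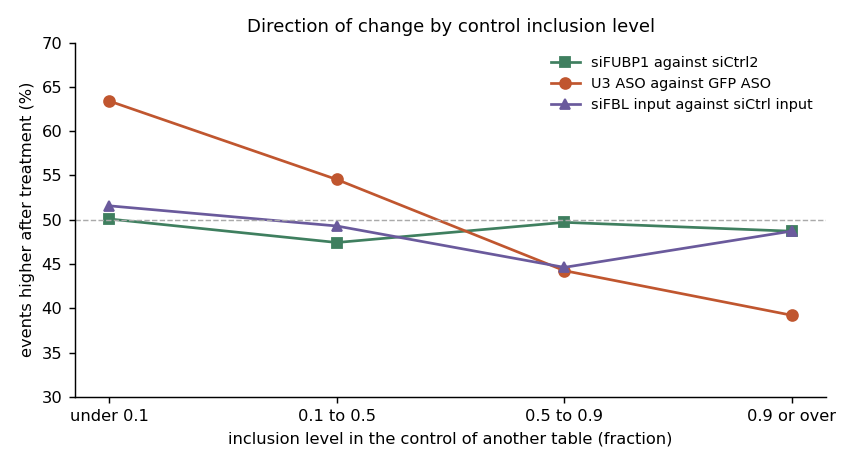
Percentage of tested events with a higher inclusion level after treatment, against the inclusion level (fraction) in the control of another table, for the 3 comparisons; the dashed line marks 50%. For U3 ASO the share runs from 63.4% for rare exons to 39.2% for exons at 0.9 or more, and the other comparisons stay between 44.6% and 51.6%.

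Under U3 ASO, the share of higher events differed between the reading frame classes of the rare exons. Over all tested events, of any class, it was 41%. Of the rare exons chosen by siCtrl2, those with an in-frame stop were higher for 318 of 467 events (68.1%) and those that shift the frame without a stop for 85 of 110 (77.3%). Exons that keep the frame were higher for 144 of 277 (52%). The median level went from 0.0251 to 0.0357 for the stop class, from 0.0305 to 0.0486 for the shift class and from 0.0325 to 0.036 for the frame-keeping class. Of the 14 events called higher at an adjusted p under 0.1, 8 carried a stop, 3 shifted the frame and 3 had no readable frame. Of the 3 called lower, 2 kept the frame and 1 carried a stop. The classes differed in size (467, 110 and 277 events), and these few calls are too small in number to tell them apart. In the siFUBP1 table, 52.2% of 492 stop events, 54.8% of 124 shift events and 41.7% of 264 frame-keeping events were higher. In the siFBL input table, the shares were 57.4% of 209, 46.6% of 58 and 48% of 171. The differences between classes were not tested.

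Among the 17 exons, SRSF3 had the smallest p, followed by PRKAR1A and MTSS2. SRSF3, an SR protein that promotes exon recognition, had its 456-base exon at chr6:36599821-36600276, annotated in NMD transcripts, at 0.0194, 0.0572 and 0.0476 in the GFP ASO libraries and at 0.188, 0.184 and 0.193 in the U3 ASO libraries. The libraries of each group lay far from those of the other, and pooled inclusion rose from 0.0424 to 0.189 (adjusted p = 3.2e-21). In the siFUBP1 table the same exon was at 0.0262, 0.0218 and 0.0233 in siCtrl2 and 0.0456, 0.0476 and 0.0388 in siFUBP1, without overlap but with an adjusted p of 0.812. SRSF2, another SR protein, had its 104-base exon at chr17:76735772-76735875 at 0.0601, 0.092 and 0.0712 in GFP ASO and 0.163, 0.146 and 0.154 in U3 ASO. This exon, also annotated in NMD transcripts, rose from 0.0753 to 0.154 (adjusted p = 0.00072). TIA1 had its 104-base exon at 0, 0.0233 and 0 in GFP ASO and 0.209, 0.188 and 0.0686 in U3 ASO, without overlap. It rose from 0.00924 to 0.144 (adjusted p = 0.047) and carries the stop shown above. Without any 1 of GFP ASO libraries 1 and 3 or U3 ASO libraries 1 and 2, the TIA1 call was lost, with an adjusted p of up to 0.457.

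RBM39, a splicing factor related to U2AF, went the other way. Its 72-base exon at chr20:35734186-35734257, with an in-frame stop, was at 0.139, 0.115 and 0.112 in GFP ASO and 0.0569, 0.0784 and 0.0738 in U3 ASO. All U3 ASO libraries lay below all GFP ASO libraries, and pooled inclusion fell from 0.121 to 0.0702 (adjusted p = 0.0044), a call lost without GFP ASO library 1 or U3 ASO library 1 (adjusted p up to 0.153). In the siFUBP1 table, where this exon was chosen by its own control and no test is given, levels were 0.0848, 0.0782 and 0.0755 in siCtrl2 and 0.0356, 0.0149 and 0.0157 in siFUBP1. In siCtrl input it was at 0.0457 and 0.0424 and in siFBL input at 0.0309 and 0.041. All 3 depletions thus had the lower pooled level, by 0.0088 in the siFBL input table, where the adjusted p was 0.874.

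The exons of PRKAR1A, DNAJC2 and PPIA also rose. PRKAR1A, a regulatory subunit of protein kinase A, had a 133-base exon outside the coding sequence at chr17:68514987-68515119 at 0.0085, 0.0447 and 0.0321 in GFP ASO and 0.239, 0.209 and 0.188 in U3 ASO. It rose from 0.0284 to 0.211 (adjusted p = 5.9e-14), with no overlap. DNAJC2 had its 47-base exon at 0.00778, 0.00892 and 0.0509 in GFP ASO and 0.226, 0.342 and 0.328 in U3 ASO. This exon, printed above, rose from 0.0255 to 0.303 (adjusted p = 0.00072). The 157-base exon of PPIA, the prolyl isomerase cyclophilin A, was far smaller in effect, at 0.0133, 0.0198 and 0.0191 in GFP ASO and 0.0387, 0.0359 and 0.0333 in U3 ASO. With 4536 reads per library it nevertheless rose from 0.0177 to 0.0357 (adjusted p = 0.00067).

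Smaller calls completed the group. The HDGF exon was at 0.00323, 0.00528 and 0.0106 in GFP ASO and 0.0135, 0.034 and 0.0403 in U3 ASO, and rose from 0.00658 to 0.0303 (adjusted p = 0.0044), a call lost without U3 ASO library 3 (adjusted p = 0.562). The DBI exon, in the gene of the acyl-CoA-binding protein, rose from 0.01 to 0.0299, and that of CTSH, the lysosomal protease cathepsin H, from 0.048 to 0.103. POFUT2, a protein O-fucosyltransferase, rose from 0.133 to 0.473, the largest difference of the 17, but its GFP ASO libraries ranged from 0.066 to 0.286. NDUFS4, a subunit of respiratory complex I, rose from 0.0146 to 0.0686, DDX19A from 0.00215 to 0.0516, RAB5C, a GTPase of early endosomes, from 0.0179 to 0.0489, and CHKA, a choline kinase, from 0.0635 to 0.161. Adjusted p of these 7 ran from 0.0044 to 0.096, and each call was lost when at least 2 libraries were left out in turn.

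Besides RBM39, 2 exons fell. The 9-base exon of MTSS2 had GFP ASO levels of 0.191, 0.183 and 0.156 and U3 ASO levels of 0.0942, 0.0238 and 0.0415 in U3 ASO, and fell from 0.174 to 0.0533 (adjusted p = 6.7e-07). In the siCtrl2 libraries, which chose it, it was at 0, 0.155 and 0. The 90-base exon of SREBF1, the lipid-regulating transcription factor SREBP1, was at 0.192, 0.241 and 0.439 in GFP ASO and 0.0847, 0.137 and 0.0437 in U3 ASO. It fell from 0.274 to 0.0801 (adjusted p = 0.077), and 5 of the 6 single-library omissions removed the call. Neither exon was rare in GFP ASO, nor were those of RBM39 and POFUT2, and these 4 were counted because siCtrl2 placed them under 0.1.

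**Figure D4:**
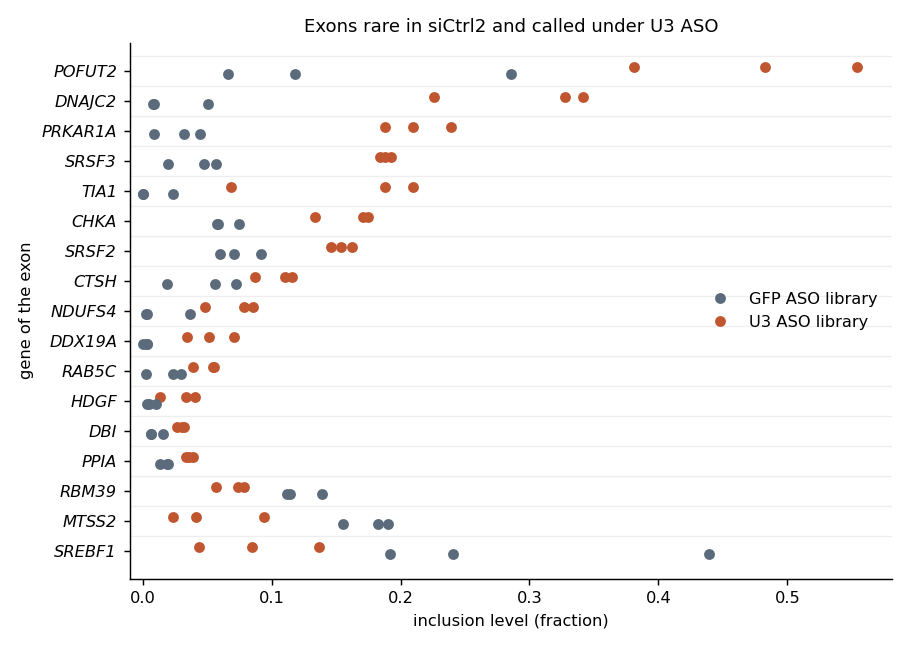
Inclusion level (fraction) in each GFP ASO and U3 ASO library of the 17 exons chosen as rare by siCtrl2 and called in the U3 ASO table at an adjusted p under 0.1, ordered by pooled change and named by gene. For all 17 exons the libraries of both groups do not overlap, with U3 ASO higher in 14 and lower in 3.

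Of the 17 calls and that of FN1, 18 in all, 7 were made without every single library in turn: SRSF3, PRKAR1A, MTSS2, PPIA, SRSF2 and DNAJC2 in the U3 ASO table and FN1 in the siFUBP1 table. The number of U3 ASO calls was 10 without GFP ASO library 2 or U3 ASO library 2 and 11 without library 3 of either group. It also varied with the test, from 0 with unweighted limma on the log2 odds to 29 with a variance trend and 9 with precision weights, where all tested events gave 0, 325 and 44 calls. Of the 18 named exons, these settings called 0, 6 and 8. The exons of SRSF3, PRKAR1A and DNAJC2 were called with the trend and with weights.

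The FN1 exon, extra domain B of the matrix protein fibronectin, was the most deeply read rare exon of the GFP ASO libraries, with 9210 reads per library. It was at 0.112, 0.124 and 0.0976 in siCtrl2 and at 0.173, 0.174 and 0.184 in siFUBP1. The groups were separate, and inclusion rose from 0.114 to 0.177 (adjusted p = 3.2e-10, with at most 2.6e-06 when any library was left out). The call was lost by limma on log2 odds without a trend (adjusted p = 0.867) and with one (adjusted p = 0.872), and was made with precision weights (adjusted p = 0.04). In the U3 ASO table, where its own control chose it and no test is given, it was at 0.0717, 0.0722 and 0.0657 in GFP ASO and lower, at 0.0422, 0.0436 and 0.0454, in U3 ASO. In siCtrl input it was at 0.057 and 0.0443 and in siFBL input at 0.0457 and 0.0317, which overlapped. The exon was thus higher after FUBP1 depletion and lower in U3 ASO than in the matching controls.

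**Figure D5:**
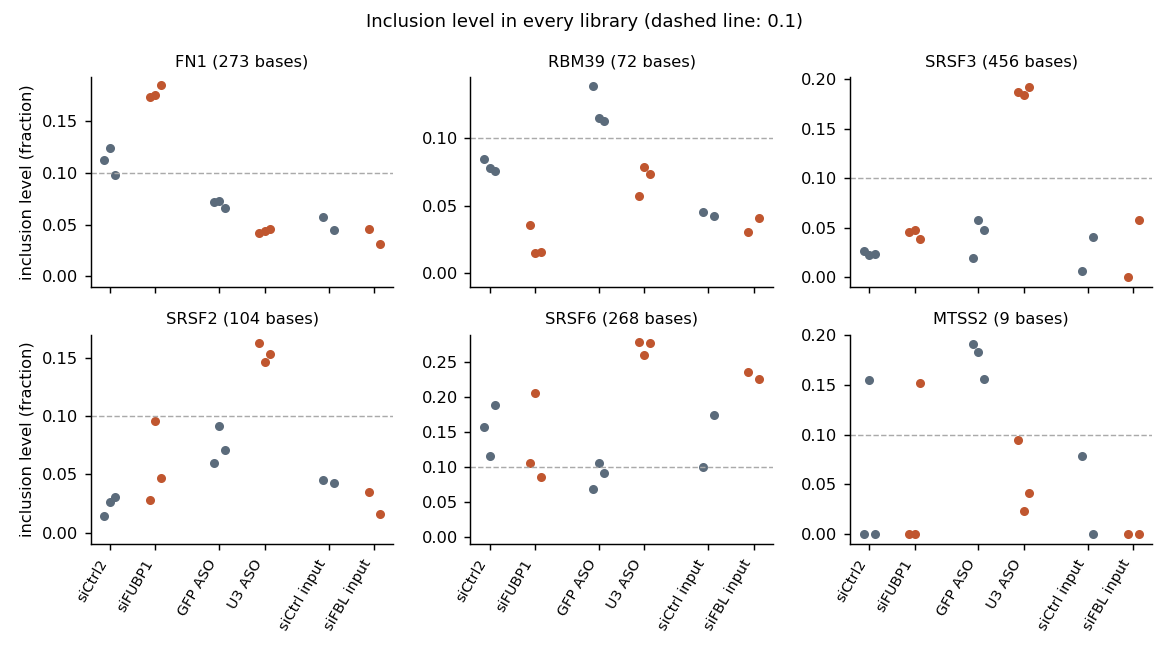
Inclusion level (fraction) of 6 rarely included exons in every library, 1 point per library, with control groups in grey and depleted groups in orange; the dashed line marks the limit of 0.1. SRSF3, SRSF2 and SRSF6 are higher in U3 ASO than in GFP ASO, RBM39 is lower in siFUBP1 and in U3 ASO, and FN1 is higher in siFUBP1 and lower in U3 ASO.

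Further exons are described in the table whose control chose them, without a test. SRSF6, also an SR protein, had its 268-base NMD exon at 0.069, 0.106 and 0.091 in GFP ASO and 0.278, 0.259 and 0.276 in U3 ASO. In siCtrl2 the same exon was at 0.156, 0.115 and 0.188, above the limit. HNRNPDL, an hnRNP protein, had a 105-base NMD exon at 0.0135, 0.0287 and 0.0123 in GFP ASO and 0.149, 0.207 and 0.203 in U3 ASO. SRRM1, a splicing coactivator, was at 0.0266, 0.0935 and 0.114 in GFP ASO and 0.277, 0.273 and 0.282 in U3 ASO. The pooled siCtrl2 level was 0.187 for HNRNPDL and 0.181 for SRRM1, so these were not rare there either. FARP1, a guanine nucleotide exchange factor, lay in the other direction, with 0.0819, 0.0696 and 0.0584 in GFP ASO and 0.00906, 0.0057 and 0.00834 in U3 ASO. Pooled levels were 0.0589 and 0.0147 for ITCH, a ubiquitin ligase, and 0.0944 and 0.0516 for VEGFA, a vascular growth factor. The exons of SRSF6, HNRNPDL and SRRM1 repeat the direction of SRSF3 and SRSF2 within the same 6 libraries and are no independent evidence of it. Of the 2084 rare events of the GFP ASO table, libraries did not overlap for 247 that were higher and 16 that were lower in U3 ASO, where all tested events gave 2.31% and 3.72%. The GFP ASO levels chose these events, so nothing is read from these counts.

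In the siFUBP1 table, the largest differences upward without overlap at 100 or more reads were those of CMC2, AIG1, YME1L1, NOL4L and ZDHHC7. CMC2, a factor for cytochrome c oxidase assembly, had a 110-base exon at 0.0833, 0.0571 and 0.036 in siCtrl2 and 0.107, 0.247 and 0.151 in siFUBP1. The 171-base exon of YME1L1, a mitochondrial protease, was at 0.0341, 0.0628 and 0.0122 against 0.0704, 0.254 and 0.11. Pooled levels were 0.0249 and 0.127 for AIG1, 0.0029 and 0.0652 for NOL4L, and 0.016 and 0.0705 for ZDHHC7, a palmitoyltransferase. In the downward direction these were MYL6, a myosin light chain (0.0945 and 0.0176), CSNK1A1 and RBM39. CRAT, carnitine acetyltransferase, had a 379-base exon with no inclusion read in siCtrl2, where 3 reads would give 0.0144, and levels of 0.256, 0.63 and 0.346 in siFUBP1, from 31.2 reads per library. In the GFP ASO libraries, the same exon was at 0.211, 0.333 and 0.148, above the limit. CRAT was chosen after its values were seen. CSNK1A1, casein kinase 1 alpha, had an 84-base coding exon at 0.115, 0.0569 and 0.051 in siCtrl2 and 0.0045, 0.0107 and 0.0028 in siFUBP1. FUBP1 itself had a rare 63-base coding exon at 0.0437, 0.0028 and 0 in siCtrl2 and 0.0478, 0 and 0 in siFUBP1, and the groups overlapped. Of the 1170 events, libraries did not overlap for 46 that were higher and 38 that were lower in siFUBP1, where all tested events gave 1.96% and 3.1%, and the siCtrl2 levels chose the events.

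In the siFBL input table, CTSB, the protease cathepsin B, had an 88-base exon at 0.0117 and 0.00773 in siCtrl input and 0.0705 and 0.0685 in siFBL input. Its levels overlapped between the groups of the other tables. FXR1, an RNA-binding protein related to FMRP, had a 92-base exon at 0.128 and 0.0449 in siCtrl input and 0.209 and 0.169 in siFBL input. It was not rare in the other controls, with 0.216 in siCtrl2 and 0.277 in GFP ASO. PSMB5, a catalytic subunit of the proteasome, lay in the other direction at 0.033 and 0.0193 against 0.00266 and 0.00211. Pooled levels were 0.00587 and 0.0635 for PSPH, an enzyme of serine synthesis, 0.00712 and 0.0385 for GPX2, a glutathione peroxidase, and 0.0671 and 0.129 for STK40. HDGF (0.0292) and MYL12A (0.0379) had no inclusion read in siFBL input. Of the 389 events, libraries did not overlap for 47 that were higher and 31 that were lower in siFBL input, where all tested events gave 6.19% and 7.63%, and the siCtrl input levels chose the events.

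Lists of genes for RNA processing and translation were then read for rare exons. In genes of SR and TRA2 proteins, 5 of 22 events with 20 reads (22.7%) were rare in siCtrl2, 7 of 33 (21.2%) in GFP ASO and 2 of 11 (18.2%) in siCtrl input, against 8.58%, 7.51% and 9.87% of all events. Of the 5 such events chosen by siCtrl2 and tested in the U3 ASO table, 3 were higher and 2 lower, and 2 passed the test (SRSF3 and SRSF2, both higher), against 0.226% of all tested events. The median level of the 5 was 0.0396 with GFP ASO and 0.0732 with U3 ASO. The 33-base exon of SRSF11, which carries a stop, was at 0.0186, 0.0481 and 0.0505 in GFP ASO and 0.0882, 0.0836 and 0.0508 in U3 ASO, with an adjusted p of 0.845. For other splicing factors and kinases, 22 of 130 events (16.9%) were rare in siCtrl2, 28 of 231 (12.1%) in GFP ASO and 11 of 47 (23.4%) in siCtrl input. Of 21 tested in the U3 ASO table after choice by siCtrl2, 16 were higher and 5 lower. Of these, 1 higher (TIA1) and 1 lower (RBM39) passed the test, against 0.226% of all tested events. An 80-base exon of SON, a scaffold protein of nuclear speckles, was at 0.0183, 0.00878 and 0.0153 in GFP ASO and 0.107, 0.0581 and 0.0386 in U3 ASO, with an adjusted p of 0.14.

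The remaining lists were read in the same way. Genes of hnRNP and PTB proteins had 2 of 65 events (3.08%) rare in siCtrl2, 4 of 105 (3.81%) in GFP ASO and 1 of 39 (2.56%) in siCtrl input. Among them was the 156-base coding exon of HNRNPA1, whose control levels of 0.0621, 0.0603 and 0.0603 in siCtrl2, GFP ASO and siCtrl input lay close together. Cytosolic ribosomal protein genes had 3 of 76 (3.95%), 4 of 93 (4.3%) and 1 of 31 (3.23%), with exons in RPL17, RPS24 and RPS27, and snoRNA host genes 3 of 58 (5.17%), 6 of 112 (5.36%) and 1 of 22 (4.55%), including a 116-base stop-bearing exon of NOP56 at 0.0182, 0.0186 and 0.0115 in the 3 controls. NOP56 encodes a core protein of the C/D box particles in which FBL works. NMD and exon junction factors had 5 of 35 (14.3%), 7 of 84 (8.33%) and 2 of 10 (20%). None of these shares was tested against that of all events. The 265-base exon of UPF3A was at 0.0719, 0.0615 and 0.0217 in GFP ASO and 0.102, 0.119 and 0.102 in U3 ASO (adjusted p = 0.845), and that of SMG5 was at 0, 0.0132 and 0.00251 against 0, 0.0179 and 0. In the U3 ASO table, the events of these 4 lists chosen by siCtrl2 numbered 2 for hnRNP and PTB proteins (2 higher), 3 for ribosomal proteins (2 higher), 3 for snoRNA hosts (1 higher) and 5 for NMD and exon junction factors (4 higher). In each of the 4 lists, 0 events had an adjusted p under 0.1 by the quasi-binomial test, 0 an unadjusted p under 0.05, and limma on log2 odds called 0 without a trend, with a trend and with weights.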

How the data were processed

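Polyadenylated or input RNA of HepG2 cells was sequenced from libraries of a stranded kit. Per the authors' methods, adapters were trimmed with Cutadapt, reads were aligned to hg38 with HISAT2 and junction reads were counted with rMATS (versions and annotation not given in the sources used here). The values used from the deposited tables are whole-number lists of inclusion and skipping junction reads, 1 per library, with effective lengths of both forms. The 6 columns of levels per library, the rMATS p-values, FDR and level differences, and the table of FUBP1 RIP against input log2 fold changes per gene were not used here. List positions carry no replicate number, so libraries are numbered by position.

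Events with a mean of at least 10 reads per library were tested by a quasi-binomial model with a dispersion moderated by limma 3.58.1 (squeezeVar, R 4.3.3, prior from events with information of at least 5), two-sided, with Benjamini-Hochberg adjustment over all tested events and calls at an adjusted p under 0.1. Levels, annotation and scores were computed in Python 3.11.15. The test was also run on simulated data with a fixed spread and added changes of fixed size. That run does not show how the test performs at the smaller changes of most rare exons. Differences within a table are depleted minus control. Biological replicates are those of the study's methods. By rule, the exons to name were the first 8 called per comparison by p, the 5 deepest per table, the 5 largest rises and 3 largest falls without overlap at 100 or more reads, the 8 deepest in all 3 tables, up to 4 per gene list and the 2 nearest to the limit on each side. Of the deepest exons and gene lists, not every exon is printed. The remaining called exons and CRAT were added after their values were seen. The FUBP1 exon was added as the targeted gene. The members, gene lists and frame classes were chosen with earlier results of these data known. The alternatives tried are other tests, read minimums, inclusion limits and single libraries left out.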

Additional observations from a re-analysis of the deposited data

How the results depend on the processing

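No paired analysis was possible because the positions in the deposited lists carry no replicate numbers. Among rare exons chosen by siCtrl2, the 17 calls under U3 ASO became 0, 29 and 9 with limma on the log2 odds without a trend, with a trend and with precision weights (the last chosen after seeing the data), and 10 to 16 with 1 library left out (10 without library 2 and 11 without library 3 of either group). After siFUBP1, where 1 exon (FN1) was called, the trend called 6 (116 of all 16213 events) without FN1, and the count was 0 with an inclusion limit of 0.05 and 3 with a limit of 0.15, and 1 to 2 with 1 library left out (2 without siCtrl2 library 3). The 0 calls after siFBL became 1 with the trend and 4 with weights, and stayed at 0 with each library left out. Requiring 50 reads reduced the rare events from 1170 to 636 in siCtrl2 and from 389 to 185 in siCtrl input; other limits on reads or inclusion moved the 3 counts by less than 1.5 times, and leaving out control libraries gave 1163 to 1180, 2117 to 2127 and 406 to 415. The median level of the rare events in the depleted libraries, 0.0166, 0.0293 and 0.0237, became 0.0278, 0.0472 and 0.039 without length scaling, and 0.0255 for U3 ASO with events chosen on all libraries. Without 1 depleted library it was 0.0131 to 0.0138 for siFUBP1, 0.0268 to 0.0281 for U3 ASO and 0.00236 (without library 2) to 0.00828 (without library 1) for siFBL input. The cause of the differences between tests was not tested. None of the 18 called exons named reversed its sign with a library left out. The pooled change does not depend on the test or the read minimum, so its sign could not reverse there. Rare exons rest on few inclusion reads, a median of 5, 7 and 4 over the control libraries of the 3 tables, which limits the size of change that can be seen.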
